A study of Mus musculus with 20 samples.

Results

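Gene expression was compared between the left atrial appendages of mice heterozygous for an altered gene and those of wild-type littermates. The comparison rests on 10 of the 20 Illumina bead arrays in the series, 5 from heterozygous and 5 from wild-type left atria (LA), chosen by the titles of the samples. The other 10 arrays hold the right atria (RA) of the same 10 mice. They entered the fit to share the estimate of each probe's spread, and their values are given beside those of the left. All mice were 12 weeks old and of the outbred CD1 strain. The labels do not say how the allele was built, which sex the mice were, or which left and right arrays share a mouse.

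The left and right atria form from opposite sides of the embryonic heart field and keep different gene programmes in the adult. The right atrium holds the sinoatrial node, the pacemaker of the heart, and the left atrium receives the pulmonary veins. Besides muscle cells, atrial appendages contain fibroblasts, endothelium, macrophages, epicardium and the fat beside it, so RNA of the whole tissue holds the transcripts of all of them.

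The left atrial arrays detected between 18040 and 19223 probes and correlated pairwise between 0.9724 and 0.9914. Signals of the atrial genes Nppa (atrial natriuretic peptide), Myl7, Myl4 and Sln were between 28767.3 and 38625.9 on every left atrial array. This is close to the top of the scale, at 38625.9, where differences can be compressed. Bmp10, a growth factor of the right atrial wall, had signals between 271.2 and 3067.7 on all right atrial arrays. On the left, its signal was between -5.5 and 6 on 9 of the 10 arrays and 144.7 on heterozygous replicate 2, the one left atrial array that detected it. That array also had a signal of 3999.7 for the ventricular light chain gene Myl2, against 237.2 or less on the other left atrial arrays. Heterozygous replicates 1, 2 and 4 stood apart in adipocyte and smooth muscle markers, as described with those lists.

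For 20097 probes and 11154 named genes the signal was detected on enough arrays to be tested, and each gene is described by 1 probe. Differences are heterozygous minus wild type on a log2 scale with an added offset of 16, which understates the change of dim genes. With the Benjamini-Hochberg adjustment in limma, 1 gene passed an adjusted p of 0.05, which is 0.00897% of the genes and 0.00498% of the probes tested. An unadjusted p under 0.05 was found for 937 probes (4.66%). By gene, 340 (3.05%) had a p under 0.05 and a higher level in heterozygous LA, and 263 (2.36%) had such a p and a lower level. In 64 genes (0.574%) every heterozygous array exceeded every wild-type array, and in 48 (0.43%) every one was below. The median difference over all genes was -0.001, and the middle of the distribution, from the 5th to the 95th percentile, ran from -0.28 to 0.31. The 95% interval of the difference lay within 2-fold in either direction for 10701 genes (95.9%). The median half-width of these intervals was 0.29, so that differences smaller than this were mostly not resolved.

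**Figure D1:**
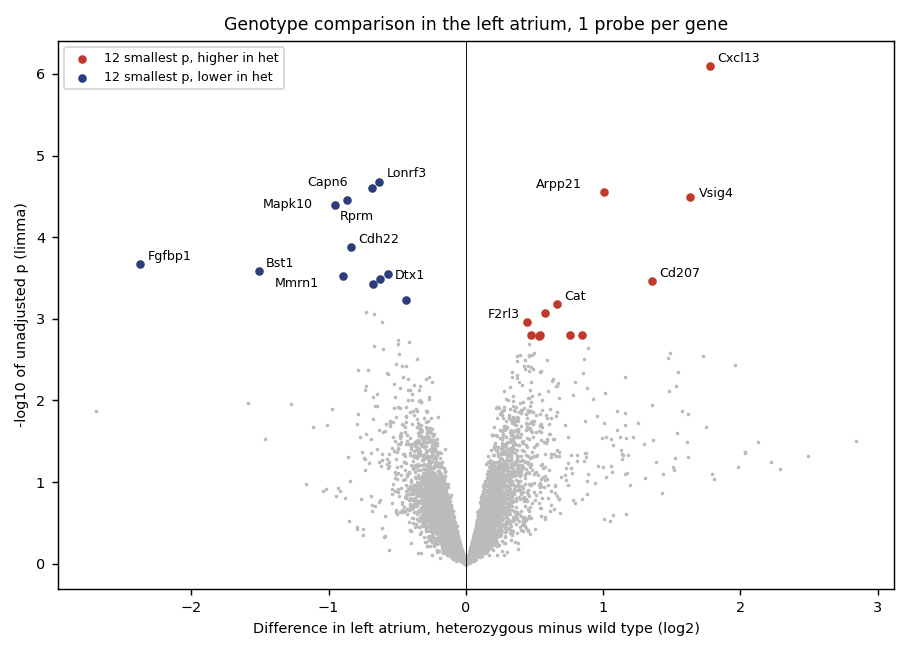
Each point is a named gene, placed by its left atrial difference (heterozygous minus wild type, log2) and by the negative log10 of its unadjusted limma p. The 12 genes with the smallest p in each direction are coloured, and Cxcl13, at a difference of 1.78, stands above all others.

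Cxcl13, a chemokine that attracts B cells through the receptor Cxcr5, was the gene that passed, and it rose in heterozygous LA. Its signals were 97.2, 91.1, 71.6, 70.3 and 56.5 on heterozygous replicates 1 to 5, and 3.9, 5.6, 2.8, 22.5 and 2.9 on wild-type replicates 1 to 5. The groups did not overlap, all 5 heterozygous arrays detected the gene, and 1 wild-type array did. The difference was 1.78 log2 units (SE 0.25, 95% interval from 1.25 to 2.30), or 3.42-fold, with an adjusted p of 0.0159 in limma. In the right atrium the signals were between 584.1 and 1935 across both genotypes, and the genotype difference there was 0.18 (SE 0.25). Mean log2 levels were 4.75 in wild-type LA, 6.52 in heterozygous LA, 10.05 in wild-type RA and 10.23 in heterozygous RA. Heterozygous LA was thus above wild-type LA and far below the right atrium. The call of Cxcl13 was lost without heterozygous replicate 3 or 4 or wild-type replicate 1, 3 or 5, where the adjusted p was between 0.056 and 0.0856. It was also lost with background correction fitted on all probes, with an offset of 50, with no filter on dim probes, and in both alternatives that address the adipocyte-marked arrays, with an adjusted p from 0.0828 to 0.900. In RNA of whole tissue, more cells of a type and more RNA per cell cannot be told apart.

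The promoter windows of Cxcl13 and Rprm are shown. Cxcl13 was the gene that passed. Rprm, described below, had the smallest p among named genes for a difference between the genotype effects of the sides, which did not pass. The windows run from 250 bases before to 50 bases after the gene start, from RefSeq on GRCm38.p6. They lie at chr5:95956689-95956988 on the plus strand for Cxcl13 and at chr2:54085503-54085802 on the minus strand for Rprm. Capitals mark TATAAA, searched on the strand of the gene.
Cxcl13 promoter: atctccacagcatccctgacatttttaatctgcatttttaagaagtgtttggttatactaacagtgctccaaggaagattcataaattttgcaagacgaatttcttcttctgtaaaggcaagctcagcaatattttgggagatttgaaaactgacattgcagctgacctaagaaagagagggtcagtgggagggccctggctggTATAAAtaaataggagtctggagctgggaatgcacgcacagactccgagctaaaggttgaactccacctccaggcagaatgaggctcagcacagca
Rprm promoter: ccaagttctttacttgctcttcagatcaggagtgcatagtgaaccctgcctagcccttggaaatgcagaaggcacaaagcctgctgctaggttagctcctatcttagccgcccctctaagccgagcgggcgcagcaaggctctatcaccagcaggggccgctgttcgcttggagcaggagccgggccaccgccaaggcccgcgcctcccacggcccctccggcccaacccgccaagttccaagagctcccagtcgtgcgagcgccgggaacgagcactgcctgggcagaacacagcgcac
In the Cxcl13 window, TATAAA starts 46 bases before the gene start, and the Rprm window holds none. That motif was in 8.32% of all 32851 mouse windows of 300 bases. A match or its lack says only whether these letters are in the window.

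Of the 4 genes with the smallest p among those higher in heterozygous LA, Vsig4 and Cd207 are macrophage genes. Vsig4, a complement receptor of tissue-resident macrophages, had signals of 113.7, 469, 306.9, 263.9 and 169.9 on the heterozygous arrays and of 86.2, 49.6, 26.6, 106.1 and 91 on the wild-type arrays. Every heterozygous signal was above every wild-type signal, and the difference was 1.63 (SE 0.31), which did not pass (limma, adjusted p = 0.115). Cd207, which encodes the lectin langerin, had heterozygous signals of 21.1, 194.4, 43.2, 73.3 and 40.5 and wild-type signals of 7.6, 11, 14.8, 18.8 and 5.2. These groups did not overlap either, with a difference of 1.35 (SE 0.31, adjusted p = 0.456), and a second Cd207 probe gave 0.67 (SE 0.29). Heterozygous replicate 2, the array with Bmp10 and Myl2 signal, was the highest of the left atrial arrays for both genes. The right atrium was brighter in both genotypes, from 1451.9 to 2888 for Vsig4 and from 866 to 1693.9 for Cd207.

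Across the macrophage list, 7 of 19 tested genes had an unadjusted p under 0.05 with a higher level in heterozygous LA, against 3.05% of all genes, and 0 with a lower level. The 7 include Vsig4, Cd207 and Cx3cr1, which were also named for their small p in LA. The list was chosen with earlier results of these data known, so the count is not evidence separate from those genes. None of the 19 passed the adjustment, and 17 had positive differences, where 49.7% of all genes did. The median of the list was 0.31. The chemokine receptor gene Cx3cr1 had a difference of 0.85 (SE 0.23), with signals from 89.6 to 220.7 in heterozygous and from 38.3 to 92.2 in wild-type LA. Cd163, the scavenger receptor for haemoglobin and haptoglobin, had a difference of 0.37 (SE 0.11), and C1qa, a chain of complement C1q, one of 0.41 (SE 0.16). Csf1r and Lyz2 had 0.11 and 0.06; like C1qa, they were chosen with their values known. The summed signal of the list was 9880.3 to 14324.2 in heterozygous and 9776.1 to 13004.8 in wild-type LA, so that the sums overlapped. Ccr2, a marker of macrophages derived from monocytes, was detected on 0 left atrial arrays.

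The macrophage counts were also taken in the alternatives for the arrays with adipocyte signal. They use the same list, so the limit from its choice holds for them too. Leaving those arrays out keeps 2 heterozygous LA arrays, and a cause of the macrophage differences was not tested. Without the 3 heterozygous LA arrays with an Adipoq signal over 1000, a choice made after seeing the data, 11 of the 19 macrophage genes had a p under 0.05 and a higher level, against 1.4% of all genes, and the median was 0.35. With the mean levels of the adipocyte and epicardium lists as covariates, also chosen after seeing the data, the count was again 11, against 1.77% of all genes, with a median of 0.38. Genes that present antigen on MHC class II had positive differences in 6 of 8 cases, with a median of 0.57 and no p under 0.05. With those covariates 4 of the 8 had one. Cd74, the invariant chain, had a difference of 0.75 (SE 0.37), and H2-Ab1, a class II beta chain, one of 0.81 (SE 0.40), with overlapping groups for both.

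Arpp21, a phosphoprotein regulated by cyclic AMP and known from neurons, had signals of 39, 47.8, 25, 34.2 and 15.5 on the heterozygous arrays. On the wild-type arrays its signals were 3.1, -2.9, -0.1, 2.8 and 1.5. The gene was detected on 4 heterozygous and 0 wild-type arrays, so that only a bound can be given, of at least 1.42-fold. The bound sets the heterozygous mean against the lowest signal detected on the wild-type arrays. The fitted difference was 1.01 (SE 0.19), which did not pass (limma, adjusted p = 0.115). In the right atrium Arpp21 lay between 145.7 and 322 in both genotypes. A second probe gave a difference of 0.11, with detection on 1 wild-type and no heterozygous LA array, so it measured little on this side.

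**Figure D2:**
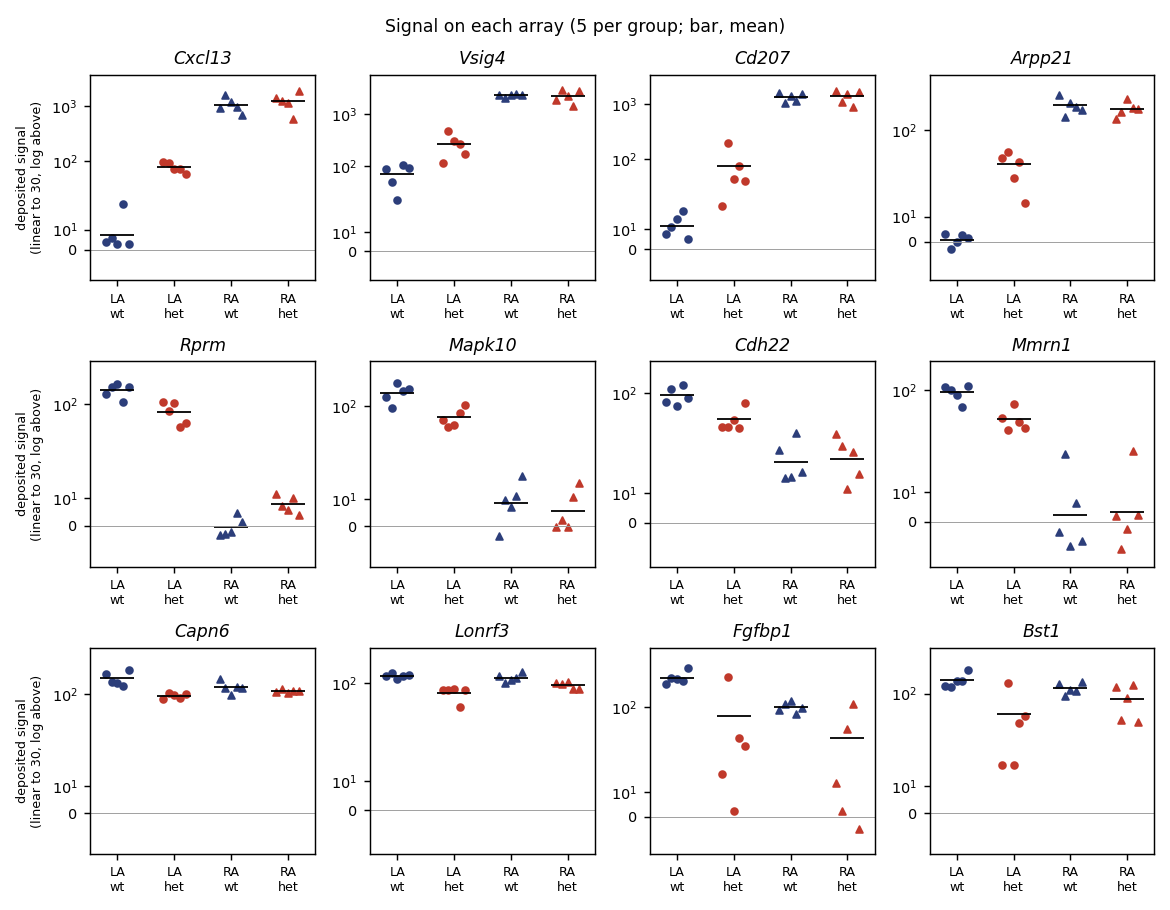
The deposited signal of 12 genes is plotted for every array, by side and genotype, on an axis that is linear up to 30 and logarithmic above; bars are group means of 5 arrays. Cxcl13, Vsig4, Cd207 and Arpp21 are brightest in RA and higher in heterozygous than in wild-type LA, while Rprm, Mapk10, Cdh22 and Mmrn1 are brightest in wild-type LA; for Fgfbp1 and Bst1 a single heterozygous LA array stands at the wild-type level.

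Genes with lower levels in heterozygous LA included several with low signal in the right atrium. Rprm, which arrests the cell cycle downstream of p53, had signals of 106.6, 81.1, 105, 49.9 and 55.5 on heterozygous arrays and of 138.6, 170.4, 188.5, 105.7 and 171.1 on wild-type arrays. The groups overlapped by the lowest wild-type array, and the difference was -0.86 (SE 0.16). Mapk10, the stress kinase JNK3, had signals of 64.2, 52.1, 56.1, 79.8 and 103.4 against 133.7, 94.6, 203.7, 161.8 and 172.2, with a difference of -0.95 (SE 0.18). A second Mapk10 probe gave -0.66 (SE 0.16). In limma both genes had an adjusted p of 0.115. In RA, Rprm was between -3.4 and 11.6 and Mapk10 between -3.8 and 18.4 in both genotypes, against wild-type LA levels near or above 100. The cadherin gene Cdh22 had 36.1 to 74.6 against 69.5 to 124.9, a difference of -0.83 (SE 0.18, adjusted p = 0.332).

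The levels of left and right atrium can only be set side by side for these genes, because the wild-type LA arrays enter both the genotype and the side comparison. Mean log2 levels in wild-type LA, heterozygous LA and wild-type RA were 7.39, 6.53 and 4.51 for Rprm. For Mapk10 they were 7.36, 6.41 and 4.78. For Vsig4 they were 6.36, 7.99 and 11.18, and for Cd207 4.87, 6.22 and 10.38. For Cdh22 they were 6.76, 5.92 and 5.19, and for Dtx1, described below, 5.58, 5.02 and 4.84. Heterozygous LA was nearer to wild-type LA in Rprm, Mapk10, Vsig4 and Cd207 and nearer to RA in Cdh22 and Dtx1. All 6 genes were named for their left atrial difference, so that their order is a description.

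Ddit4l, an inhibitor of mTOR signalling that is high in the left atrium, had signals of 593.6, 338, 406.8, 407.2 and 620 in heterozygous LA and of 611.9, 750.3, 773.9, 643.6 and 901.9 in wild-type LA. Its groups overlapped by 1 array and its difference was -0.65 (SE 0.22). The contactin gene Cntn2 had 0.96 (SE 0.49), with signals from 18.5 to 178.2 against -0.7 to 40.5. Shox2, a transcription factor of the sinoatrial node, had 0.65 (SE 0.39), and its signals exceeded those of all wild-type arrays on heterozygous replicates 1 and 2. Of the 11 tested genes on the list for left and right identity, 1 had a p under 0.05 and a higher level, against 3.05% of all genes, and 1 had one and a lower level, against 2.36%. The median was 0.16. Without the arrays with Adipoq signal the median of the list was -0.10.

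Lonrf3 and Capn6 were about as bright in the right atrium, with mean log2 levels of 7.12 and 7.47 in wild-type LA and 7.05 and 7.12 in wild-type RA. Lonrf3, a ubiquitin ligase of the RING finger type, had signals of 81.4, 80.9, 82.7, 49.1 and 82.1 against 121.7, 133.1, 112.3, 123.7 and 127.5, without overlap. Its difference was -0.63 (SE 0.11), and a second probe, above background on 2 of the heterozygous and 3 of the wild-type arrays, gave 0.03 (SE 0.16). Capn6, a calpain that lacks protease activity, had signals of 85.8, 104.6, 96.2, 88.1 and 101.7 against 190.6, 147, 142.5, 128.7 and 213.9. Its groups did not overlap and its difference was -0.68 (SE 0.12). Both genes had an adjusted p of 0.115 in limma, and in RA the genotype differences were -0.28 for Lonrf3 and -0.15 for Capn6.

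Fgfbp1 and Bst1, which lie close to each other on chromosome 5 with Cd38 between them, had the same arrays low. Fgfbp1 encodes a secreted carrier of fibroblast growth factors, and its signals were 17.1, 286.4, 2.3, 34.6 and 28.3 on heterozygous replicates 1 to 5 and 224.2, 275.7, 261.6, 244.5 and 379.3 on the wild-type arrays. Bst1, also called CD157, is an enzyme of the cell surface that makes cyclic ADP-ribose, and its signals were 17.6, 140.1, 17.8, 39.9 and 50.1 against 127.5, 124, 149.8, 149.6 and 209.2. For both genes heterozygous replicate 2 was at the wild-type level and the other 4 heterozygous arrays were below every wild-type array. The differences were -2.37 (SE 0.52) for Fgfbp1 and -1.51 (SE 0.34) for Bst1, each with an adjusted p of 0.456 in limma. Without heterozygous replicate 2 they were -2.98 (adjusted p = 0.0055) and -1.87 (adjusted p = 0.0197), so that 1 array decided both calls. In the right atrium Fgfbp1 had signals of 13.6, 2.2, 47.4, 113.4 and -5 in heterozygous mice and of 78.8 to 124.4 in wild-type mice. Bst1 had 40.5 to 131.9 against 93.5 to 145.7 there. Of the tested genes that flank this pair, C1qtnf7 had a left atrial difference of -0.30, Cc2d2a of -0.03, Fbxl5 of 0.03 and Tapt1 of 0.02. Cd38 and Prom1 were not tested.

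Further genes with lower levels and small p had differences between -0.43 and -0.90. Mmrn1, an adhesive protein of platelets and lymphatic endothelium, had signals of 45.1, 31.9, 67.1, 40.8 and 33.7 against 109, 101.7, 86.8, 61.2 and 113.7, and a difference of -0.90 (SE 0.20). Dtx1, a regulator and target of Notch signalling, had 9.6 to 20.7 against 23.3 to 37.7, without overlap, and -0.57 (SE 0.13). Lipt1, a lipoyltransferase of mitochondria, had 12.4 to 42.1 against 44.8 to 54.9, also without overlap, and -0.62 (SE 0.14). Each of these genes had an adjusted p of 0.456 in limma. Aktip, a binding partner of the kinase Akt, had a difference of -0.67 (SE 0.16, adjusted p = 0.470) and -0.45 in RA. Mex3d, an RNA-binding protein, was seen above background on all 5 wild-type LA arrays and on 0 heterozygous ones, and was at least 1.21-fold lower (adjusted p = 0.676).

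Further genes with higher levels had differences between 0.45 and 0.76. Catalase, Cat, which breaks down hydrogen peroxide, had signals of 694.9, 494.9, 387.6, 557.5 and 593.1 against 253.2, 393.6, 282.7, 417.3 and 342.1, and a difference of 0.67 (SE 0.16). A second Cat probe gave -0.19 (SE 0.34), so the probes of this gene did not share a sign. Gpd2, the mitochondrial glycerol-3-phosphate dehydrogenase, had 541.1 to 1385.7 against 426.5 to 525.1 and a difference of 0.76 (SE 0.21), with its highest signals on the adipocyte-marked replicates 1, 4 and 2. Differences were 0.58 (SE 0.15) for F2rl3, a thrombin receptor, 0.53 (SE 0.15) for Plxdc1, a marker of tumour endothelium, 0.45 (SE 0.12) for Cercam and 0.54 (SE 0.15) for Btk, a kinase of B cells and myeloid cells. Second probes gave smaller differences, of 0.33 (SE 0.25) for Gpd2 and 0.26 (SE 0.16) for Plxdc1. None of these genes passed, with adjusted p of 0.698 or more in limma. Of these 12 higher genes, chosen by p, 6 had groups that did not overlap, against 0.574% of all genes, and of the 12 lower genes 5 had, against 0.43%; nothing is read from these counts.

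**Figure D3:**
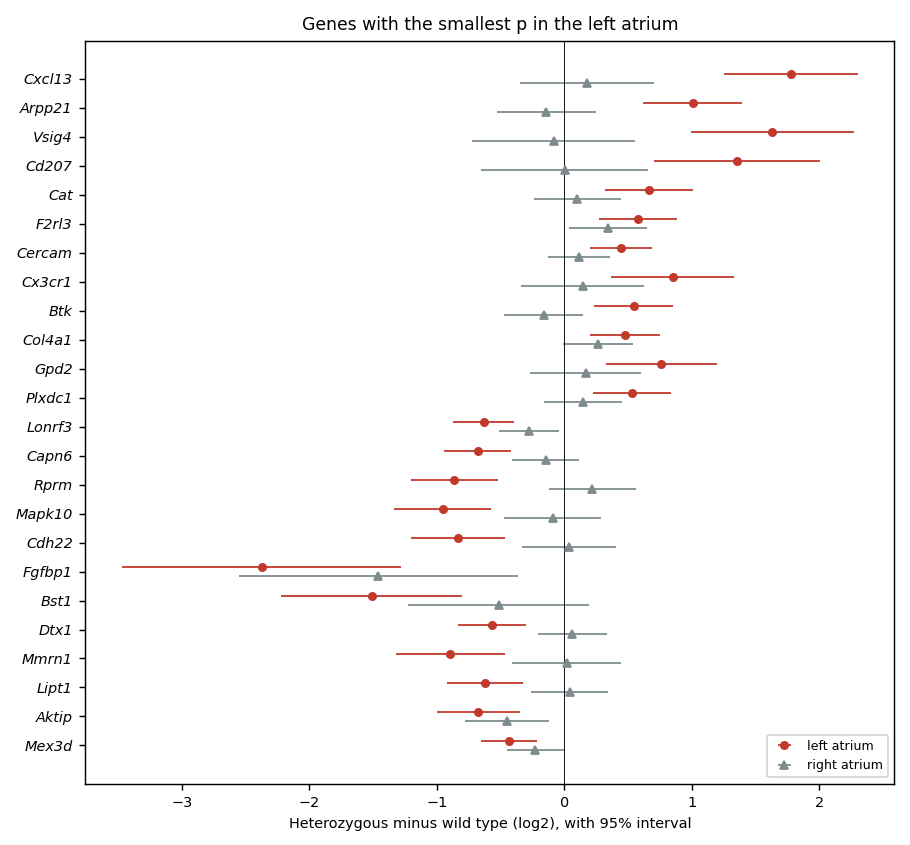
Points are the genotype differences (heterozygous minus wild type, log2) of the 24 genes with the smallest left atrial p, with 95% intervals from limma, for LA (circles) and RA (triangles). The left atrial intervals exclude 0 because the genes were chosen for that; the right atrial intervals of Cxcl13, Vsig4, Cd207, Rprm and Mapk10 include 0, while those of Fgfbp1, Aktip, Lonrf3, Mex3d and F2rl3 do not.

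The difference between the genotype effects of the sides was tested as an interaction over all 20 arrays. Left and right atria came from the same mice, but the fit treated all arrays as independent, because the labels do not pair them. Among named genes, 0 passed in limma, and 2 probes without a gene name did (0.00995%), while 593 of 20097 probes (2.95%) had an unadjusted p under 0.05. The same 2 probes (0.00995%) were the only ones to pass between the genotypes in RA, where 1087 (5.41%) had an unadjusted p under 0.05. The smallest p of the named genes belonged to Rprm, whose genotype difference was -0.86 in LA and 0.22 in RA. Cxcl13 followed with an interaction of 1.60 (SE 0.36), Arpp21 with 1.15 (SE 0.26) and Vsig4, with 1.63 in LA and -0.08 in RA. Treml1, a receptor of platelets, had 0.41 in LA and -0.30 in RA. A call in the left and none in the right therefore does not show that the sides differed for Cxcl13.

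The extracellular matrix list held 8 of 33 tested genes with an unadjusted p under 0.05 and a higher level, against 3.05% of all genes, and 0 with a lower level. No member passed the adjustment, and the median was 0.19. The basement membrane collagen gene Col4a1 had signals of 3798.6, 2795.5, 3539.1, 2639.8 and 2688.9 against 2669, 2241.6, 2432.6, 2013.9 and 1717.1, and a difference of 0.48 (SE 0.13). Its groups overlapped by the lowest heterozygous and the highest wild-type array. Col18a1, another basement membrane collagen, had 0.64 (SE 0.20), and the fibril genes Col5a1 and Col14a1 had 0.40 (SE 0.15) and 0.46 (SE 0.20). Without the 3 arrays with Adipoq signal, 3 of the 33 genes had such a p, against 1.4% of all genes, and the median was 0.15. The fibroblast list had 2 of 17 genes with a p under 0.05, both higher. These were the microfibril gene Mfap5 with 0.54 (SE 0.17) and the collagen gene Col1a1 with 0.48 (SE 0.23), and the list's median was 0.20.

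Markers of adipocytes and smooth muscle were high on some heterozygous arrays. Adipoq, the adipocyte hormone adiponectin, had signals of 8120.3, 2284.6, 96.5, 2181.9 and 206.2 on heterozygous LA and of 296.6, 131.4, 9.3, 448.1 and 611.4 on wild-type LA. Cidea, a lipid droplet protein of brown fat, was high on the same arrays, at 1516.6, 996.6 and 2870.9 on heterozygous replicates 1, 2 and 4 against 241.9 or less on the other left atrial arrays. All 13 tested adipocyte genes had positive differences, 5 with a p under 0.05, against 3.05% of all genes, and the median was 1.06. Without the 3 arrays, which were left out for their signal of a gene on this list, the median was -0.03 and 0 genes had such a p in limma.

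Smooth muscle genes were high on the same arrays. Myh11, the smooth muscle myosin heavy chain, had signals of 541.3, 1590.4, 93.3, 328.8 and 85.7 against 75.6 to 112.9, and the actin gene Acta2 had 8886.6, 24946.9, 3118.6, 8744.7 and 2386.4 against 1516.6 to 4176.5. Of 12 tested smooth muscle genes 5 had a p under 0.05 and a higher level, against 3.05% of all genes, and the median was 0.26. Without the 3 arrays the count was 0, against 1.4% of all genes, and the median 0.001. The summed signals ran from 15009.9 to 42948.7 in heterozygous and from 14244.7 to 17391.4 in wild-type LA.

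Epicardial genes were lower on the whole. Of 15 tested, 14 had negative differences and 7 had a p under 0.05 and a lower level, against 2.36% of all genes, with a median of -0.51. Lrrn4, a mesothelial membrane protein, had signals of 89.5, 296.3, 173.4, 289.1 and 262.4 against 480.7, 327.7, 279.4, 265.2 and 459.9, and a difference of -0.73 (SE 0.25). Efemp1, a fibulin, had -0.97 (SE 0.36), Krt19, a keratin, -0.53 (SE 0.21), and Upk3b, a uroplakin, -0.53 (SE 0.24). The exception was the protease inhibitor gene Slpi, with 1.55 (SE 0.48). Heterozygous replicate 1, with the highest Adipoq signal, had the lowest signals of Lrrn4 and Upk3b. Without the 3 arrays 4 of the 15 genes had a p under 0.05 and a lower level, against 1.18% of all genes. The median was then -0.36, with 2 heterozygous arrays left. With the covariates, which include the list itself, the median was -0.09. The part of these cell types in other differences was viewed only through these alternatives, and was not tested as a cause.

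**Figure D4:**
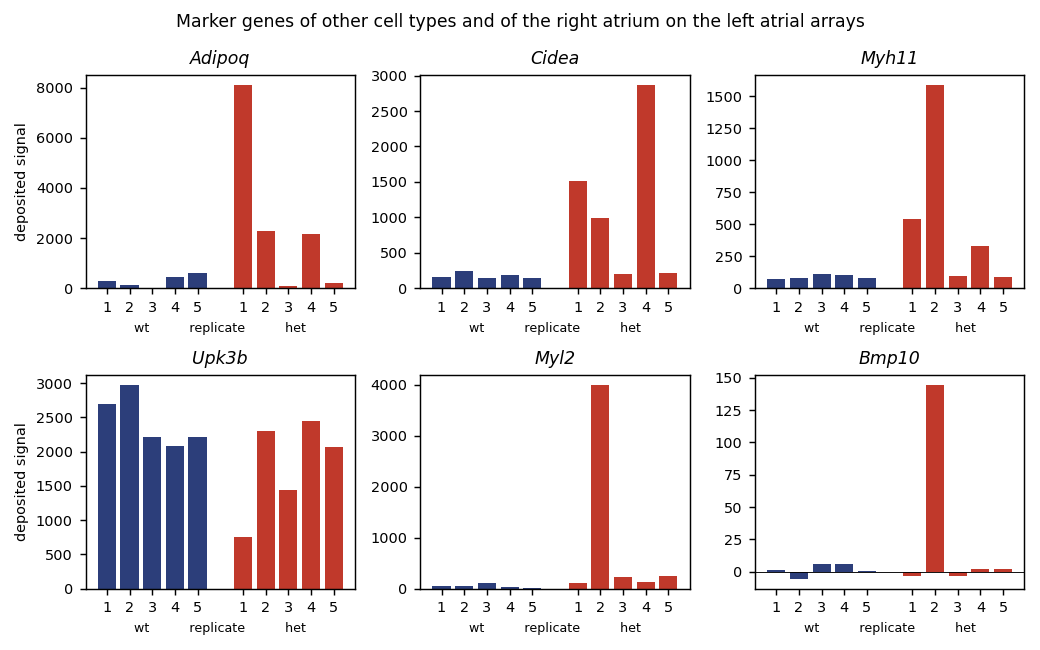
Bars are the deposited signals of 6 marker genes on the 10 left atrial arrays, wild type on the left and heterozygous on the right of each panel. Adipoq, Cidea and Myh11 are high on heterozygous replicates 1, 2 and 4, Upk3b is lowest on heterozygous replicate 1, and Myl2 and Bmp10 are high on heterozygous replicate 2.

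The clock list had 1 gene with a p under 0.05 and a higher level and 1 with a lower level, of 11 tested (9.09% each, against 3.05% and 2.36% of all genes), and a median of 0.33. Dbp, an output gene of the circadian clock, had signals of 665.4, 671.8, 1425.2, 1903.6 and 460.6 against 476.4, 658.6, 410.9, 385.4 and 421.2, and a difference of 0.93 (SE 0.32). Arntl, the clock activator Bmal1, had 559.7, 684.8, 552, 473.4 and 886.4 against 750.3 to 844.5, and -0.35 (SE 0.14). Heterozygous replicates 3 and 4 had the highest Dbp and the lowest Arntl signals. In RA the genotype differences were 0.99 for Dbp and -0.32 for Arntl. The labels do not state the hour at which tissue was taken, so hour and genotype cannot be told apart. Of 17 immediate early genes, 5 had positive differences and 1 had a p under 0.05, the matricellular gene Ccn1 with -0.86 (SE 0.41).

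Counts for genes of electrical activity are read against 3.05% of all genes for higher and 2.36% for lower levels. All 18 tested potassium channel genes had a 95% interval within 2-fold, as did 95.9% of all genes. Of these 18 genes, 1 had a p under 0.05 and a higher level (5.56%). It was Kcna5, the channel of the ultrarapid atrial potassium current, with signals of 145.3, 148, 186.9, 144.1 and 193.6 against 81.1, 147.8, 86.9, 124.7 and 141.2 and a difference of 0.46 (SE 0.17). Kcnj3, a subunit of the acetylcholine-gated channel, had -0.29 (SE 0.30), and without the arrays with Adipoq signal 0.22. Of 11 sodium and calcium channel genes 0 had a p under 0.05 in limma, and the median was -0.002; Scn10a, for example, had -0.15 (SE 0.16). Of 25 calcium handling genes 1 had such a p in each direction, Capn6 and the calcium buffer gene Pvalb with 1.16 (SE 0.46), a gene of fast skeletal muscle as well. The calcium release channel gene Ryr3 had 0.48 (SE 0.25), and Camk2d, the main cardiac calmodulin kinase, 0.26 (SE 0.17).

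Of 14 gap junction and desmosome genes 1 had a p under 0.05 in each direction, against 3.05% of all genes for higher and 2.36% for lower levels. These were the cadherin gene Cdh2 with 0.66 (SE 0.25) and the desmoglein gene Dsg2 with -0.31 (SE 0.14). In RA these differences were 0.65 and -0.37. Of 12 tight junction genes 9 had negative differences, and the median of the list was -0.17. Cldn1 was at -0.48 (SE 0.20), with detection on 1 heterozygous and 4 wild-type arrays. Without the arrays with Adipoq signal the median of the tight junction list was -0.002, with 6 of 12 positive. With the covariates it was -0.085. The sarcomere list had 1 of 23 genes with a p under 0.05, Myl2. Its signals were 107.6, 3999.7, 224.3, 119 and 237.2 on heterozygous arrays and 59.4, 43.9, 106, 34.9 and 6.9 on wild-type arrays, without overlap, and its difference was 2.49 (SE 1.18). Of 41 oxidative phosphorylation genes 0 had a p under 0.05 in limma, and all 41 had intervals within 2-fold, as did 95.9% of all genes. Fatty acid oxidation had 0 of 26, with a median of 0.004. Of 11 atrial myocyte genes 0 had one, with a median of 0.04.

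For transcription factors and signalling genes, counts are read against 3.05% of all genes for higher and 2.36% for lower levels. Of 21 cardiac transcription factors 1 had a p under 0.05, the Notch target gene Hey1 with 0.27 (SE 0.11), while Irx3 had 0.28 (SE 0.20). Of 34 Wnt, BMP and Notch genes 2 were higher (5.88%) and 1 lower (2.94%) at that p. Frzb, a secreted Wnt antagonist, had 0.40 (SE 0.15), and the ligand gene Bmp6 had -0.48 (SE 0.20). The cell cycle list had 1 gene in each direction of 11, Rprm and the survivin gene Birc5 with 0.35 (SE 0.15).

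Counts for other immune and stromal lists are read against the same 3.05% of all genes for higher and 2.36% for lower levels. Chemokines and cytokines had 3 of 23 higher (13%), Cxcl13, Ccl6 with 0.55 (SE 0.17) and Ccl5 with 0.66 (SE 0.31), and a median of 0.19. Of 6 lymphocyte genes 0 had a p under 0.05 in limma, and the B cell marker Ms4a1 was detected on 0 left atrial arrays. The lymphatic list had 2 of 10 genes with such a p, both lower (20%), and 9 of 10 with negative differences, with a median of -0.29. These were Mmrn1 and Prox1, the transcription factor of lymphatic identity, with -0.26 (SE 0.12). Ccl21c, a chemokine of lymphatic vessels whose probe cannot be told from those of near-identical copies, had -0.84 (SE 0.48). The stress list had 2 of 27 genes higher, Cat and the metallothionein gene Mt1 with 0.25 (SE 0.09), and 1 lower, Ddit3 with -0.29 (SE 0.13). Endothelial genes had 1 of 19, the natriuretic peptide clearance receptor gene Npr3 with -0.38 (SE 0.17), and a median of -0.03. The interferon list had 0 of 16 and a median of -0.001. Scgb1a1, a secretory gene of the lung airway, had signals of 173.2, 2.8, -14, 597.1 and 954.1 on wild-type LA against values below 0 on every heterozygous LA array. Markers of the alveolar surface, Sftpa1, Sftpb and Sftpc, were detected on 0 left atrial arrays.

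**Figure D5:**
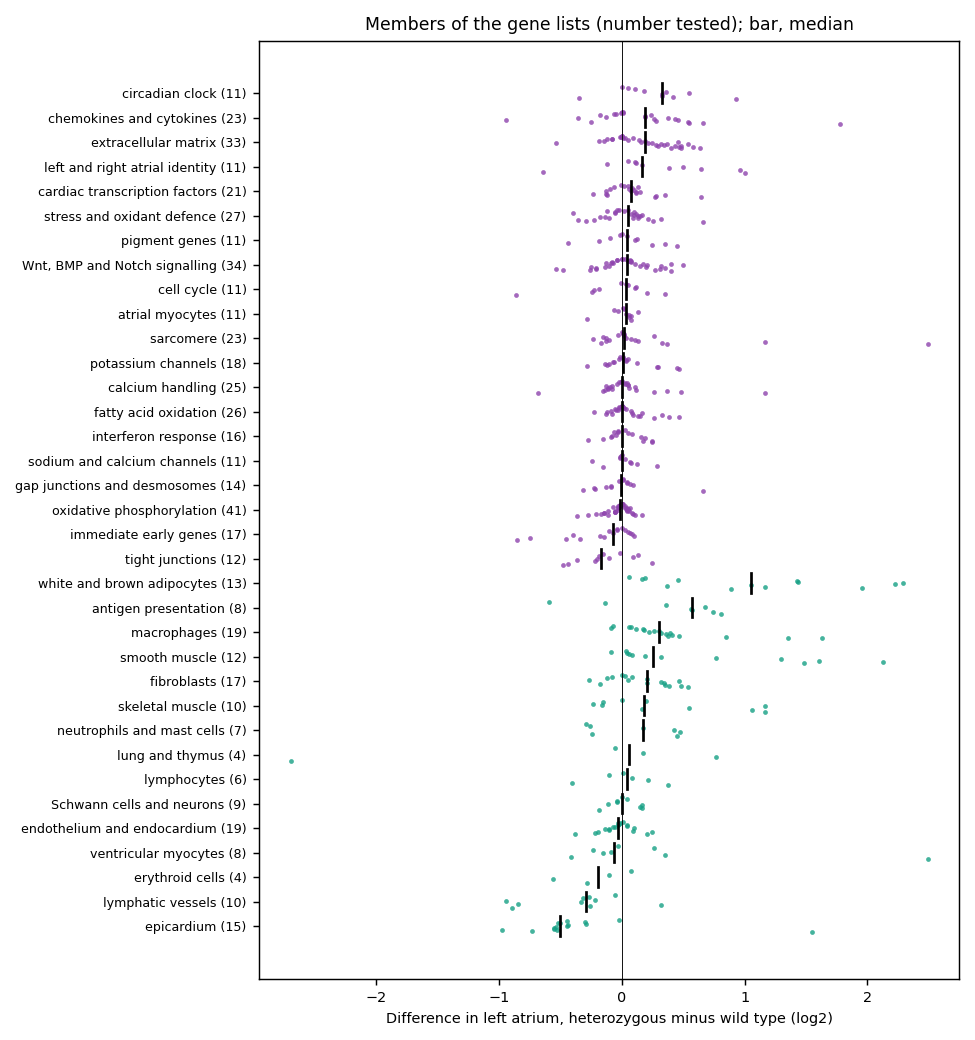
Each point is a tested gene of 1 of the 35 lists, placed by its left atrial difference (heterozygous minus wild type, log2); black bars are list medians and numbers in brackets the genes tested. Function lists (purple) have medians between -0.17 and 0.33, while the marker lists (green) run from -0.51 for epicardium to 1.06 for adipocytes.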

How the data were processed

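Total RNA was labelled as biotinylated cRNA and hybridised to Illumina bead arrays, per the labels' protocols. The deposited intensity values are on a linear scale; between 33.7% and 33.9% of each array's values are below 0 and sorted values differ by at most 1.8 units between arrays, so the deposited values had been background-subtracted and quantile-normalized. Which scanner software was used is not stated there. The deposited detection columns were read as 1 minus the detection p-value, which was inferred from their values, and were turned round. A second deposited table of intensity values is identical (largest difference 0).

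The neqc function of limma 3.58.1 (R 4.3.3) was applied, which fits normexp to the detection p-values, adds 16, normalizes by quantiles and takes log2. The design assumed uncorrected intensities and was kept. Testing was limited to probes whose detection p was under 0.05 on 5 or more of the 20 arrays, in a model of 4 groups of 5 arrays fitted with lmFit and eBayes and adjusted by Benjamini-Hochberg over 20097 probes. A gene's brightest probe stood for it; 34885 of 45281 probes have 1 symbol and 10378 none in the annotation given with the platform. A probe undetected on a whole group has only a bound. The labels speak of separate mice. Left and right arrays share mice, and the model treated all arrays as independent. Beyond that, p-values measure the spread between these arrays, whose number limits the precision.

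Genes named are those called, the 12 with the smallest p in each direction, up to 4 per list, the 5 with the smallest interaction p, and markers of arrays that stand apart; Csf1r, Lyz2, C1qa and Upk3b were added after their values were seen. The members of the comparison, the 35 lists (681 genes, 514 tested) and the rules were chosen with earlier results of these data known. Lists are described by counts and medians, with no test. The altered gene is not reported here. The fit was tested on simulated data for this comparison. It recovered 29.9%, 80.6% and 100% of probes changed by log2 values of 0.5, 1 and 2 (67, 67 and 66 of 20097). The simulated errors were normal, independent between arrays and of 1 spread per probe in all groups. These rates need not hold for arrays of uneven spread, such as the heterozygous LA arrays with adipocyte signal. The planted changes also made the Benjamini-Hochberg adjustment more lenient than in the data, where 1 probe passed. There, Arpp21 with a difference of 1.01 had an adjusted p of 0.115 in limma. The rates are therefore not those at which real changes of these sizes would be called. Alternatives changed the background step, offset, normalization, filter, choice of probes, variance model, arrays fitted, replicate numbers and single arrays.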

Additional observations from a re-analysis of the deposited data

Results flagged for a closer look

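A pair of single arrays stood far from the others of their group by Dixon's ratio of gap to range on the log2 scale, whose critical value for 5 arrays is 0.71. For Cxcl13, wild-type LA replicate 4 had a signal of 22.5 against 2.8 to 5.6 on the other wild-type arrays, a ratio of 0.885; without that array the difference was 1.91 (limma, adjusted p = 0.0118). For Lonrf3, heterozygous LA replicate 4 had 49.1 against 80.9 to 82.7, a ratio of 0.956. Chance gives about 1 such array in 20 groups, and 2 were found among 50 groups checked.

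For 2 probes without a gene name, the genotype effects of the sides differed. Probe ILMN_3118071 had a genotype difference of -0.10 (SE 0.17) in LA and 3.71 (SE 0.17) in RA, and an interaction of -3.80 (limma, adjusted p = 1.38e-08). Its signals were 1154.6 to 1467.2 in heterozygous and 1134.5 to 1609.8 in wild-type LA, against 435.1 to 835.1 in heterozygous and 17.9 to 37.2 in wild-type RA. Probe ILMN_1220244 had -0.03 (SE 0.15) in LA and 2.27 (SE 0.15) in RA, and an interaction of -2.30 (adjusted p = 1.11e-05). Its left atrial signals were 215.3 to 349 in heterozygous and 221.6 to 311.1 in wild-type mice, while in RA it was detected in heterozygous mice, at 71.3 to 141.2, and lay between -5.4 and 5.9 in wild-type mice. Both probes thus differed by genotype on the right and were not called on the left.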

How the results depend on the processing

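The count of left atrial probes called, 1 as reported, was 2 without further background correction and with the mean of a gene's probes, and 5 with array weights. It was 0 with normexp on all probes, with an offset of 50, with no filter, with detection on all 20 arrays (which leaves out Cxcl13), with the replicate block, without the arrays with Adipoq signal over 1000 and with cell type covariates. Leaving out single arrays gave 0 to 3, and 2 throughout for RA and for the interaction. These last counts, 2 as reported, became 0 with detection on all arrays and with the mean of a gene's probes, which leaves out unnamed probes.

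The Cxcl13 difference, 1.78 as reported, was called in 23 of 34 other settings. It was not called at 0.94 (adjusted p = 0.748) with normexp on all probes, 1.05 (0.337) with an offset of 50, 1.78 with no filter (0.0828) and with the replicate block (0.0513), 1.57 without the Adipoq arrays (0.900) and 1.57 with covariates (0.343). Leaving out single arrays gave 1.70 to 1.91, and the call was lost in 5 of these 20 settings, each without an LA array. The 23 calls include those without an RA array and with the identical second table. Those settings left the difference at 1.78, so they say little about how robust the call is. Both cell type alternatives were chosen after seeing the data; the first leaves 2 heterozygous LA arrays.

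The calls with array weights were Cxcl13, Arpp21, Vsig4, Capn6 and Mapk10, the second without further correction was Dtx1, and the second with the mean of probes was Mapk10. Arpp21 passed without heterozygous replicate 5, Vsig4 without heterozygous replicate 1 and Mapk10 without wild-type replicate 2. Of 3358 values for 97 other genes, 5 changed sign: Kcnj3 to 0.22 and Adipoq to -0.38 without the Adipoq arrays, Adipoq to -0.13 with covariates, and Bmp10 to -0.062 both without the Adipoq arrays and when heterozygous replicate 2 alone was left out (leaving out other single arrays gave at most 0.66). Of 490 list medians, 45 changed sign, most of them near 0. Same-numbered LA arrays of the genotypes correlated between -0.184 and 0.328 in their deviations, and 1 of 5 correlated best with its own number. The numbers were therefore not taken to pair heterozygous with wild-type mice. Such arrays come from different mice, so this cannot decide whether a number marks the left and right arrays of 1 mouse. That was not examined, and the labels do not settle it. The cause of these changes was not tested.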
